A study of Mus musculus with 6 samples.

Results

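The Six-Eya transcription regulators were followed here through 7 genes, Six2, Six4, Six5, Eya1, Eya2, Eya3 and Eya4, in the uterus of 12-month-old CD-1 mice. The members were fixed by name, and all 7 were found among the 24077 genes of the single-cell table and the 30828 genes of each of the 4 spatial tables. Female pups had received corn oil (CO) or diethylstilbestrol (DES, a synthetic estrogen) at 1 mg/kg/day by injection on days 1 to 5 of life, and the labels name no engineered allele. For single-cell RNA sequencing, dissociated uteri of 2 CO mice were pooled into 1 library and those of 4 DES mice into another. For spatial transcriptomics, 1 section was taken from each of 2 CO mice (CO A and CO B) and 2 DES mice (DES A and DES B), all on 1 slide. CO mice were collected in estrus, since adult DES mice remain in persistent estrus, and the DES sections were examined for uterine adenocarcinoma before use.

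Six-family proteins are DNA-binding transcription factors with a homeodomain. Eya proteins do not bind DNA themselves. They are recruited by Six-family proteins as co-activators, and they carry a phosphatase domain. Upstream Pax factors and the Dach cofactors complete a network that acts in the development of kidney, ear, eye, muscle and parts of the reproductive tract, where Pax2 and Pax8 mark the epithelium derived from the Müllerian duct.

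In the GENCODE annotation of GRCm38 (mm10), Six2 lies at chr17:85684277-85688274 and Six4 at chr12:73099609-73113456, both on the minus strand, and Six5 at chr7:19094594-19098549 on the plus strand. Eya1 lies at chr1:14168954-14310235 and Eya4 at chr10:23102963-23350786, both on the minus strand. Eya2 lies at chr2:165595032-165771727 and Eya3 at chr4:132638987-132724765, both on the plus strand. All 7 are protein-coding genes. On the same strand, Eya1 shares 439 bases with Gm37444, an unclassified transcript, and Eya4 107 bases with the snRNA gene Gm24655, so that counts from these bases are uncertain. On the opposite strand, Eya1 shares 100 bases with a miRNA gene, and Eya2 325 with a lincRNA gene and 361 with a processed pseudogene. The genomic sequence just upstream of Six2 and Six4 is shown because Six4 had its highest level in epithelial cells and Six2 was found mainly in basal cells. RefSeq starts of GRCm38.p6 were matched for 5 of the 7 genes, and none was matched for Eya1 or Eya2. In the following runs, printed 5′ to 3′ on the minus strand, capitals mark GC boxes (GGGCGG, or CCGCCC on the other strand) and CCAAT boxes, and in the third run a MEF3 site, the element through which Six-family proteins act on muscle genes.
Six2, chr17:85688275-85688504: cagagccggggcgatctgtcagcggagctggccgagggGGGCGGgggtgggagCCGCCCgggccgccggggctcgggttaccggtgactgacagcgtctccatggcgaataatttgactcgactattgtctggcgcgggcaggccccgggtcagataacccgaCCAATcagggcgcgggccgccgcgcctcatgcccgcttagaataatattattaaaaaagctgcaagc
Six4, chr12:73113457-73113675: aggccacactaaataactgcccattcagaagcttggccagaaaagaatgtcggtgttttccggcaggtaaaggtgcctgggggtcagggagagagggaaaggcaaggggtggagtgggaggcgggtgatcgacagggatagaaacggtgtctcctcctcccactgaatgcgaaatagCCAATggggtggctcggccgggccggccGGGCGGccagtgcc
Six4, chr12:73113326-73113354: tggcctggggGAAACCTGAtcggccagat
The MEF3 letters searched were TCAGGTTTC on either strand. In Six4 they read on the strand opposite to the gene, 99 bases before 1 of its 2 RefSeq starts, and within exon 1 of the GENCODE model. Over 32851 windows of 250 bases before RefSeq starts, 0.387% held these 9 letters, 33.8% a CCAAT box, 32.7% a GC box and 12.4% the TATA letters TATAAA, on either strand. A GC box was also found before RefSeq starts of Six5, Eya3 and Eya4, and that of Eya4 lay within exon 1 of the GENCODE model. These matches describe letters only, and nothing was measured on them.

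In the CO library, 353460067 unique molecular identifiers (UMIs, counts of distinct RNA molecules) came from 32387 cells, at a median of 6779 per cell. In the DES library, 288919190 UMIs came from 16312 cells, at a median of 10153.5. The authors' cell types covered 12253 CO and 9701 DES cells. There were 180 cell barcodes found in both libraries, and leaving out both cells of each pair left the DES to CO ratio of Eya1 in non-basal epithelium at 39.2 and the basal to non-basal ratio of Six2 at 57.7, against 39.8 and 57.9 with them. Marker genes matched the name of the epithelial cells, which had 3516 (CO) and 2469 (DES) CPM (UMIs of a gene or list per 1000000 UMIs of the group) over Epcam, Krt8, Krt18 and Cdh1. Mesothelial markers were highest in "Mesothelial" cells, at 2343 (CO) and 2486 (DES) CPM. These cells also held 21126 and 21755 CPM of stromal markers, against 12687 CPM in CO stromal cells. Lymphocyte markers were highest in "Lymphocytes", at 1088 (CO) and 865 (DES) CPM. These also held 3390 and 8835 CPM of myeloid markers, against 6827 and 17894 CPM in "Myeloid" cells. The DES library held 1 stromal and 5 endothelial cells, so that no DES level could be given for either type. With 1 library per condition there was no replicate, and every interval quoted for single cells is a 95% interval for counting error only.

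Within the DES epithelium, basal cells (483) were those in which Krt14 and Trp63 each had more than 1 UMI. The DES non-basal epithelial clusters of the authors held another 4604 cells, and 168 DES epithelial cells belonged to neither. The 3 basal markers Krt14, Krt5 and Trp63 summed to 5211 CPM in the basal cells, 84.6 CPM in the DES non-basal cells, 3341 CPM in the 168 remaining cells and 1.2 CPM in the 2583 CO epithelial cells, all of which were non-basal. A level per cell type is a sum over its cells, and cells of 1 library are not replicates.

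Six4 was highest in epithelial cells in both libraries. Its level was 27.1 CPM (26.4 to 27.9) in DES epithelial cells and 15.8 CPM (14.9 to 16.7) in CO epithelial cells. Pericytes (11.3 CPM, from 4 UMIs), myocytes (10.9 CPM) and stromal cells (7.33 CPM, 5.86 to 9.05) followed in the CO library, with overlapping intervals, and those of pericytes and myocytes also overlapped the interval of CO epithelial cells. Every other type with more than 5 cells lay between 0.671 and 4.72 CPM. Six5, which neighbours the myotonic dystrophy gene Dmpk, had another order. Its level was 13.7 CPM (7.66 to 22.6) in myocytes and 13.2 CPM (11.2 to 15.5) in stromal cells, which did not differ beyond their intervals. Mesothelial cells of both libraries followed at 9.23 CPM in CO and 9.74 CPM in DES. Epithelial cells were lower at 3.25 CPM (2.86 to 3.67) in CO and 4.80 CPM (4.48 to 5.13) in DES.

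Six2, which keeps nephron progenitors undifferentiated in the kidney, was rarely detected outside 1 epithelial group. It had 67 UMIs in all cells with a type, of which 64 were in epithelial cells and 42 in the 483 DES basal cells. The stromal cells of the CO library gave 0 Six2 UMIs, which allows up to 0.256 CPM.

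Among the Eya genes, Eya2 was highest in epithelial cells. Its level was 81.1 CPM (79.1 to 83.1) in CO and 54.8 CPM (53.7 to 55.9) in DES epithelial cells. Myocytes (18.2 CPM, 11.1 to 28.2), stromal cells (17.6 CPM, 15.3 to 20.2) and the Ctla2a cells of the CO library (16.8 CPM, 12.4 to 22.4) came next and did not differ beyond their intervals. The 4 epithelial markers stood at 580, 360 and 491 CPM in these 3 types, 956 CPM in CO mesothelial and 3516 CPM in CO epithelial cells, and the part of epithelial RNA in these Eya2 levels was not tested. Mesothelial cells had 5.43 CPM in CO and 3.89 CPM in DES.

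Eya1, in which loss-of-function mutations cause branchio-oto-renal syndrome, was highest in stromal cells in the CO library. In the DES library, which lacked stromal cells to compare, epithelial and some immune cells had like levels. It reached 9.20 CPM (7.55 to 11.1, 108 UMIs) in CO stromal cells and 5.74 CPM (3.28 to 9.31) in CO Ctla2a cells, whose intervals overlapped. In CO epithelial cells it stood at 0.0888 CPM (0.0357 to 0.183, 7 UMIs), close to the 0.0842 CPM of CO mesothelial cells. In DES epithelial cells it stood at 3.76 CPM (3.48 to 4.06, 663 UMIs). The DES myeloid cells with high Lyz2, at 3.59 CPM (1.55 to 7.08, 8 UMIs), and the DES cells named lymphocytes, at 2.69 CPM (0.732 to 6.88, 4 UMIs), had intervals that overlapped it, while DES mesothelial cells had 0.0774 CPM.

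Eya3, a broadly expressed family member, had no epithelial or stromal pattern. It ranged from 2.74 CPM in myocytes, which rested on 3 UMIs, to 17.7 CPM (12.4 to 24.4) in DES myeloid cells, and was 9.40 CPM in CO and 8.89 CPM in DES epithelial cells. Eya4, known for its part in hearing and in heart muscle, was found in myeloid cells. It had 17.1 CPM (12.1 to 23.4) in the DES myeloid cells with high Lyz2, 11.8 CPM (7.54 to 17.5) in the other DES myeloid cells and 4.87 CPM (1.00 to 14.2, 3 UMIs) in CO myeloid cells. Epithelial cells held 0 Eya4 UMIs in CO and 2 in DES.

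**Figure D1:**
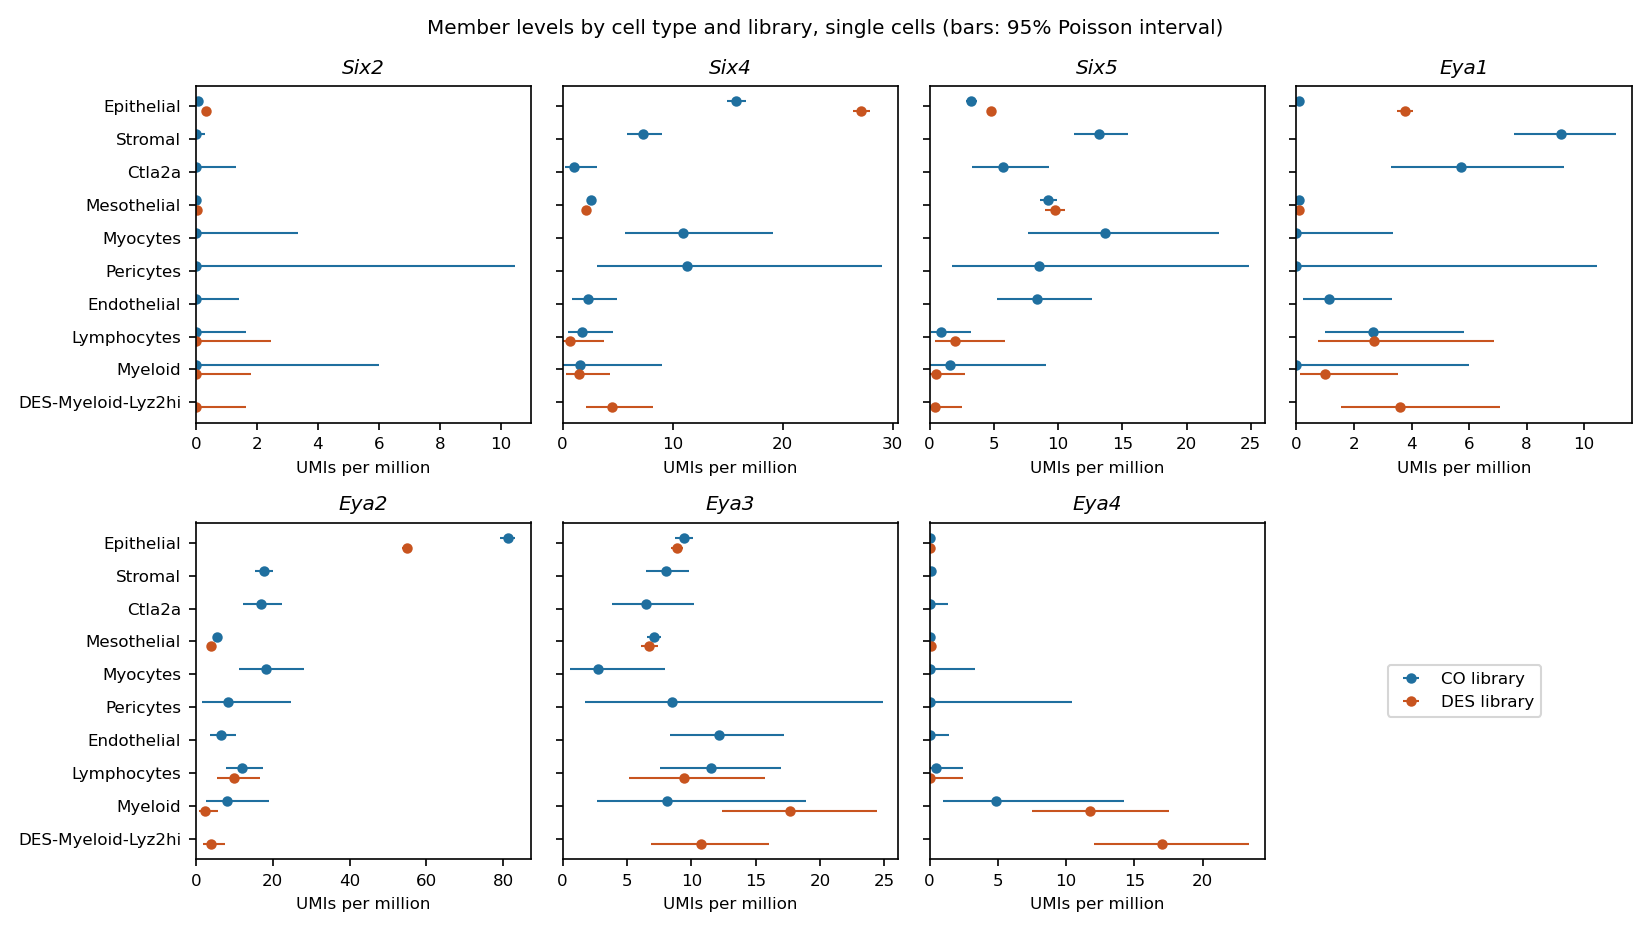
Level of each of the 7 genes (CPM, x axis) in each annotated cell type (y axis) of the CO and DES libraries, with 95% Poisson intervals for counting error. Six4 and Eya2 were highest in epithelial cells, Six5 was low there, Eya1 was at 9.20 in CO stromal cells and 3.76 in DES epithelial cells, and Eya4 was seen in myeloid cells.

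Between CO and DES non-basal epithelial cells, Eya1 had the largest ratio of the 6 genes with any counts to compare. It stood at 3.54 CPM (3.25 to 3.84, 579 UMIs) in DES and at 0.0888 CPM in CO, a ratio of 39.8 (19.2 to 99.5). Six4 was higher in DES at 26.5 CPM (25.7 to 27.3) against 15.8 CPM, a ratio of 1.68 (1.58 to 1.79), and Six5 at 4.79 against 3.25 CPM, a ratio of 1.47 (1.28 to 1.70). Eya2 was lower in DES at 50.7 CPM (49.6 to 51.8) against 81.1 CPM, a ratio of 0.625 (0.605 to 0.646). Eya3 had a ratio of 0.965 (0.883 to 1.06) and Six2, with 12 and 5 UMIs, a ratio of 1.16 (0.379 to 4.19), so neither differed beyond counting error. Eya4 gave no ratio. Of the 5 genes with at least 1 CPM in either group, 1 (Eya1) was more than 2-fold higher and 0 were more than 2-fold lower, where 13.2% of all 12730 such genes were past 2-fold higher and 10.1% past 2-fold lower. The median log2 ratio was 0.56 over the 5 genes and 0.12 over all genes. Eya1 reached 1 CPM in DES only and lay far below it in CO, so its 2-fold call followed from the filter. The count and the median of the 5 genes include it.

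DES basal cells carried the highest levels of Six2, Six4, Eya1 and Eya2 among the 3 epithelial groups compared. Six2 stood at 4.25 CPM (3.06 to 5.74) in basal and 0.0733 CPM (0.0379 to 0.128) in DES non-basal cells, a ratio of 57.9 (29.9 to 121). Eya2 stood at 108 CPM (102 to 115) against 50.7 CPM, a ratio of 2.13 (2.0 to 2.27). Eya1 at 6.47 CPM (4.98 to 8.26) and Six4 at 37.3 CPM (33.6 to 41.3) were 1.83 (1.39 to 2.37) and 1.41 (1.26 to 1.57) times the DES non-basal levels. Six5 had a ratio of 1.01 (0.741 to 1.36), while Eya3 was lower at 6.27 CPM (4.81 to 8.04), a ratio of 0.691 (0.527 to 0.891). Of 6 genes at or above 1 CPM, 2 (Six2 and Eya2) were past 2-fold higher, where 12.1% of 12878 genes were, and 0 past 2-fold lower, where 11.1% were. The median log2 ratio was 0.69 over the 6 genes and -0.05 over all genes. Six2 reached 1 CPM in the basal cells only, so its call followed from the filter, and the count and median include it. Against the CO epithelial cells, the basal cells had 66.9 times the Six2 level (26.5 to 217), 72.9 times the Eya1 level (33.4 to 188), 2.36 times the Six4 level (2.10 to 2.66) and 1.33 times the Eya2 level (1.25 to 1.42). These 3 past 2-fold higher among 6 (Six2, Eya1 and Six4) stood beside 17.6% of 12910 genes. Six2 and Eya1 reached 1 CPM there in the basal cells only, so their calls followed from the filter. The 168 DES epithelial cells outside both groups had 7.79 CPM of Eya1 and 111 CPM of Eya2, near the basal levels, and 26.1 CPM of Six4, near the DES non-basal level. Their Six2 level of 1.95 CPM (5 UMIs) lay between those of the DES non-basal and basal cells.

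**Figure D2:**
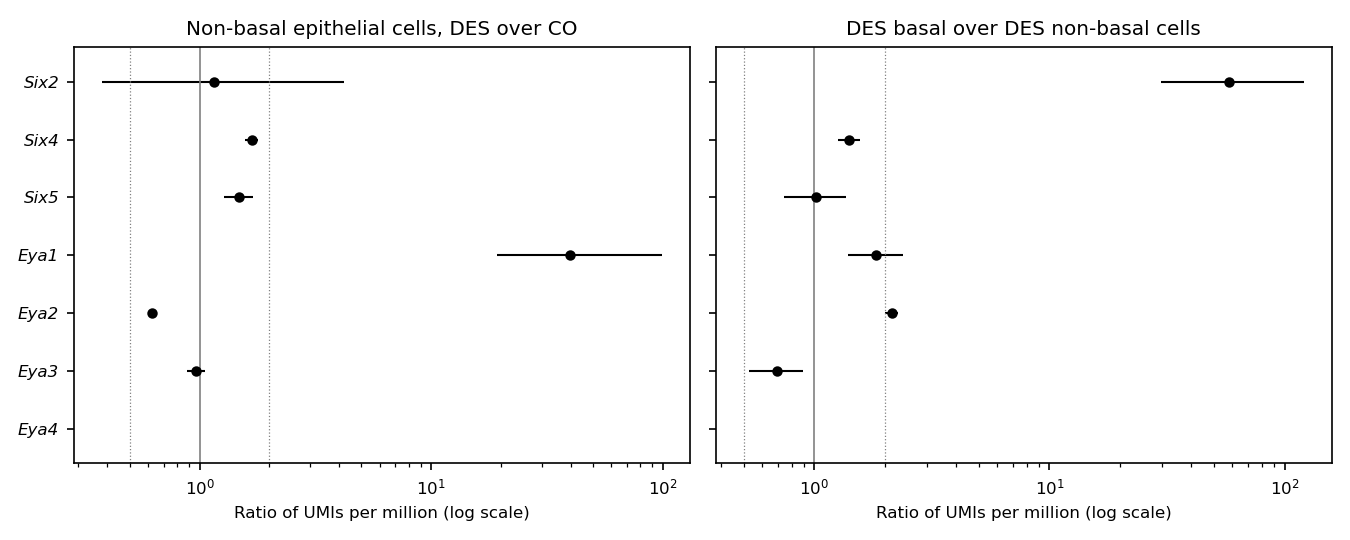
Ratio of CPM (x axis, log scale) for each gene between DES and CO non-basal epithelial cells (left) and between DES basal and non-basal cells (right), with exact 95% intervals for counting error and dotted lines at 2-fold. Eya1 stood at 39.8 on the left and Six2 at 57.9 on the right, and Eya4 had no ratio.

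The share of cells with a UMI gave the same order once every cell was thinned to 3000 UMIs. Eya2 was detected in 18.4% of CO (16.9 to 19.98), 14.4% of DES non-basal (13.4 to 15.5) and 29.8% of DES basal cells (25.8 to 34.1), and without thinning in 73.8%, 68.6% and 82.8%. Mesothelial cells, which also held high stromal markers, are given for comparison only, at 1.82% in CO and 1.00% in DES. Median depth was 23458 UMIs in CO epithelial, 24636.5 in DES non-basal, 16093 in DES basal, 10436 in CO mesothelial and 12329 in DES mesothelial cells. Six4 was detected in 4.37%, 7.11% and 11.6% of the same 3 epithelial groups, against 0.819% and 0.608% of mesothelial cells and 31.3%, 47.9% and 44.1% without thinning. Eya1 was detected in 0.0390%, 1.23% and 1.45%, against 0.0149% and 0.0264% of mesothelial cells and 0.271%, 8.30% and 10.8% without thinning. Six2 was detected in 0, 2 and 6 thinned cells of the 3 groups, and without thinning in 0.194%, 0.261% and 7.66% of their cells. Thinning left out 21, 49 and 0 cells of the 3 groups, 148 CO and 55 DES mesothelial cells. Any Six-family member was detected in 5.46%, 8.52% and 13.9% of the thinned cells of the 3 groups and any Eya member in 20.5%, 17.8% and 32.3%. For CO stromal cells these shares were 5.30% and 10.1%, and for CO Ctla2a cells 1.59% and 8.43%. Beside these single shares, both were detected in the same thinned cell in 0.976% of CO (0.632 to 1.44), 1.51% of DES non-basal (1.18 to 1.91) and 3.93% of DES basal cells (2.38 to 6.08). None of these joint shares exceeded the product of the single shares of its group.

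Within the authors' epithelial clusters, Eya1 had its highest level in 1 DES cluster and was found in all 16. DES cluster 5, of 295 cells, had 18.7 CPM (16 to 21.8, 166 UMIs), and no other DES cluster's interval reached it. DES clusters 10 (7.95 CPM) and 0 (5.15 CPM) followed, and DES cluster 11 was lowest at 0.330 CPM. In CO, Eya1 had 0 UMIs in 10 of 15 clusters and at most 2 in any. DES cluster 5 was at the same time the lowest DES cluster for Eya2 (30.5 CPM, 27.0 to 34.4) and had 35.4 CPM of Six4 (31.6 to 39.5), behind cluster 14 at 39.2 CPM, whose interval overlapped those of 7 clusters. DES cluster 8 had the highest Eya2 level of the 16 DES clusters (82.5 CPM, 75.4 to 90.1), with an interval that overlapped that of cluster 11 (70.7 CPM). Its Six4 level was the lowest (13.2 CPM, 10.4 to 16.4), with cluster 13 next at 13.9 CPM (10.4 to 18.2). These clusters were built from the same counts, so the differences between them are given as a description.

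In CO, Eya2 was lower over the glandular than over the luminal clusters as the study named them. The luminal clusters (2095 cells) had 89.0 CPM (86.7 to 91.2) and the glandular clusters (417 cells) 21.4 CPM (18.4 to 24.7), a ratio of 0.240 (0.206 to 0.278). Glandular clusters 14, 3 and 8 stood at 11, 14.9 and 22.2 CPM and were the 3 lowest of 15. Glandular cluster 13 stood at 65.1 CPM (49.5 to 84.2), an interval that held the median of the 15 clusters (82.4 CPM). Luminal clusters 11 (141 CPM) and 10 (129 CPM) were highest, and their intervals overlapped. Six4, at 13.4 against 16.3 CPM, had a ratio of 0.823 (0.674 to 0.997) and Eya3, at 7.23 against 9.66 CPM, of 0.749 (0.569 to 0.971). Six5 had 4.36 against 2.93 CPM, a ratio of 1.49 (1.02 to 2.12). Of the 4 genes at or above 1 CPM, 1 (Eya2) was past 2-fold lower, where 12.5% of 12629 genes were, and 0 past 2-fold higher, where 15.6% were.

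**Figure D3:**
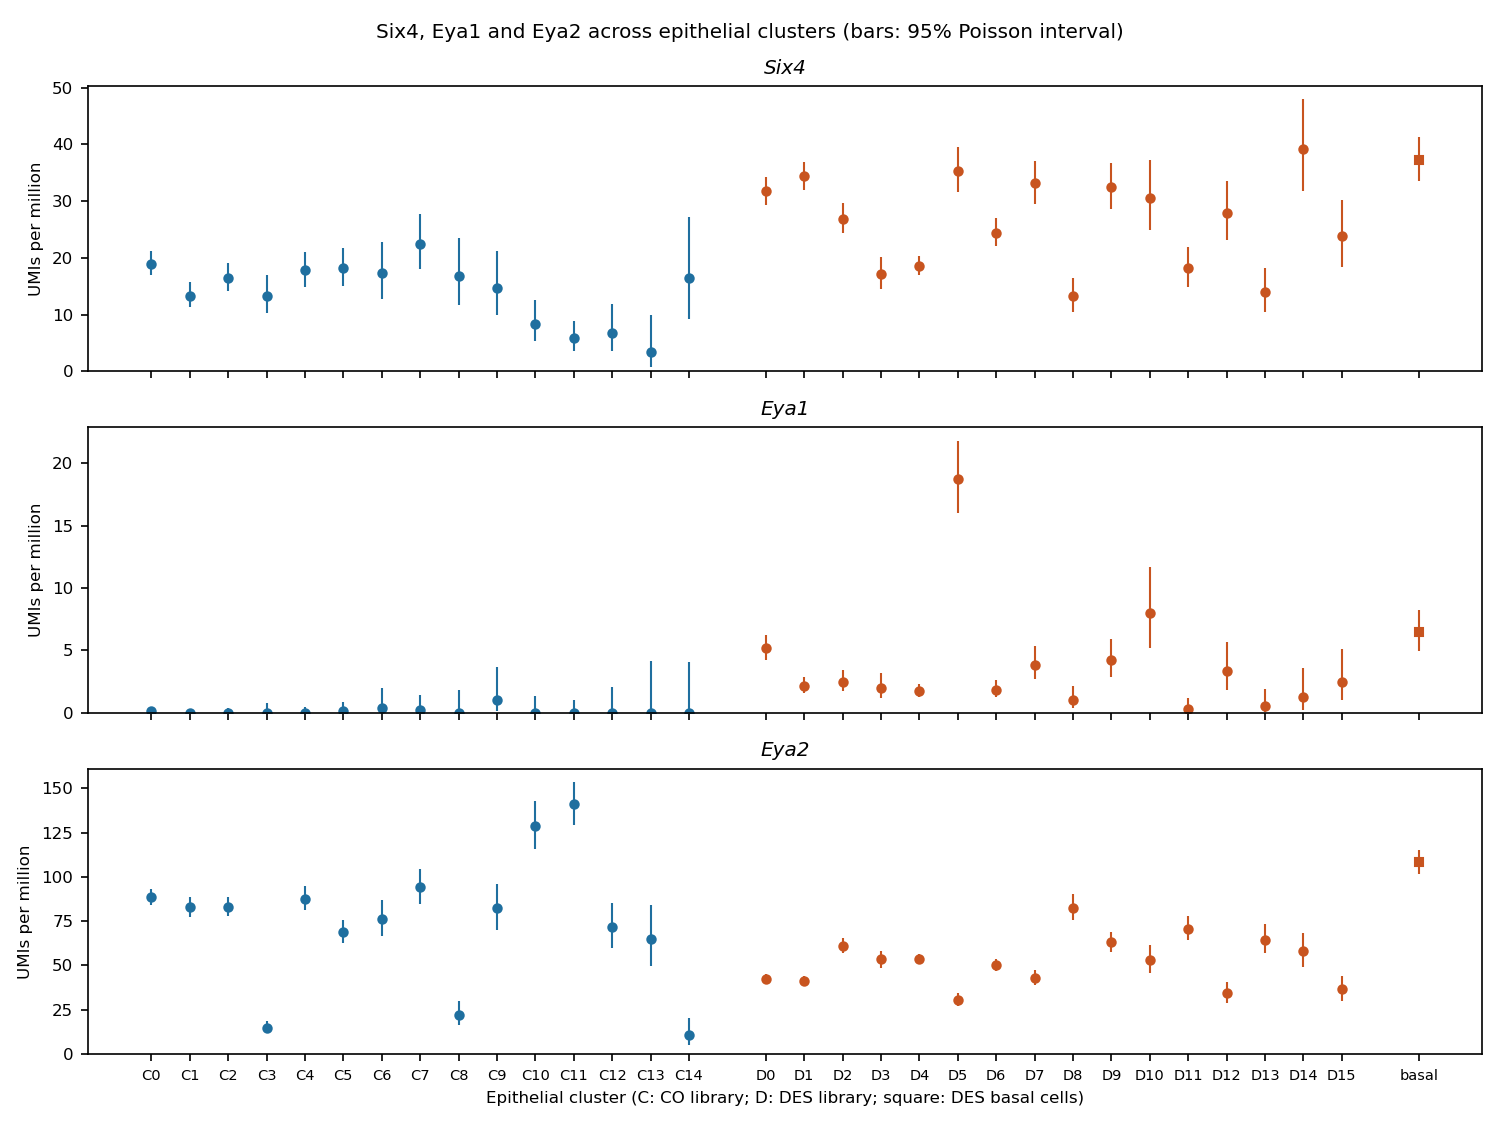
Levels (CPM, y axis) of Six4, Eya1 and Eya2 in the 15 CO clusters (C0 to C14), the 16 DES clusters (D0 to D15) and the DES basal cells, with 95% Poisson intervals. Eya1 stood above the other DES clusters in D5 at 18.7, Eya2 was at or below 22.2 in C3, C8 and C14, and the basal cells had 108 for Eya2 and 37.3 for Six4.

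In mesothelial cells, the same genes were close between libraries. Eya2 was lower in DES, at 3.89 CPM (3.42 to 4.40) against 5.43 CPM (4.94 to 5.95), a ratio of 0.716 (0.611 to 0.837). The 4 epithelial markers stood at 466 CPM in these cells in DES and 956 CPM in CO, and their part in this ratio was not tested. Six4, Six5 and Eya3 had ratios of 0.842 (0.675 to 1.05), 1.06 (0.948 to 1.17) and 0.95 (0.837 to 1.08), which did not differ beyond counting error. None of the 4 genes at or above 1 CPM passed 2-fold, where 4.33% of 13164 genes were higher and 4.36% lower. In the 20134 CO and 6611 DES cells without a type, 2 of 5 genes (Six4 and Eya1) were past 2-fold higher in DES, where 8.59% of 13758 genes were, and 0 past 2-fold lower, where 7.37% were.

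The genes whose levels were most like each member were found by Pearson's r of log2(CPM + 1) over 14 cell type by library groups and 12326 genes, as a description with no p. This was done for the 5 members with at least 200 UMIs in typed cells, which left out Six2 and Eya4. For Eya2 they were Dsp (desmoplakin, r 0.95), Sftpd (surfactant protein D, r 0.94) and Pof1b (r 0.94). For Six5 they were Ccdc127, Ube2r2 and Tead1 (a transcription factor of the Hippo pathway), each with r 0.95. Six4 was most like Chpt1, St6galnac5 and Map6 (r 0.86, 0.86 and 0.85). Eya1 was most like Stra6 (a retinol transporter, r 0.82), P2ry1 (r 0.78) and Col23a1 (r 0.76). Eya3 was most like Sirt7, Psmb8 and Faim (r 0.91, 0.84 and 0.84). Across the 32 epithelial groups, Eya2 was most like Mfsd6 (r 0.88), Dsp (r 0.83) and Bmpr2 (a BMP receptor, r 0.82). Groups shared 2 libraries, so they were not independent.

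Of 31 other genes of the Pax-Six-Eya-Dach pathway, 29 were in the single-cell table. In non-basal epithelial cells, 20 had at least 1 CPM, 3 were past 2-fold higher in DES (13.2% of all genes were) and 3 past 2-fold lower (10.1%), with a median log2 ratio of 0.08 beside 0.12 over all genes. Dach2, the paralog of the cofactor Dach1, stood at 16 CPM in DES and 0.495 CPM in CO, a ratio of 32.4 (23.6 to 45.6). Esr2, estrogen receptor beta, had 1.35 against 0.165 CPM, a ratio of 8.18 (4.69 to 15.6). The Groucho corepressor Tle2 had a ratio of 2.27 (1.78 to 2.93). Dach2 and Esr2 reached 1 CPM in DES only, so their calls followed from the filter, and the count and median include them. The cotransporter gene Slc12a2 (68.4 against 228 CPM), the Ski-like corepressor Skil (51.2 against 117 CPM) and the cyclin gene Ccnd1 (78.1 against 169 CPM) were lower, at ratios of 0.300, 0.437 and 0.461.

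Between basal and DES non-basal cells, 5 of 21 genes of the list were past 2-fold higher, where 12.1% of all genes were, and 3 past 2-fold lower, where 11.1% were. Tle4, a Groucho corepressor, had a ratio of 18.7 (16.4 to 21.4), followed by Sobp at 5.75, Myc at 2.64, Skil at 2.49 and Ccnd1 at 2.36. Dach2, Esr2 and Sall1 were lower in basal cells, at 0.183 (0.122 to 0.264), 0.300 (0.0809 to 0.778) and 0.442 (0.386 to 0.505). Sobp, at 0.880 CPM in the non-basal cells, passed the filter only through the basal cells. Esr2 passed it only through the non-basal cells (1.35 CPM). Against CO epithelial cells, 5 of 20 were past 2-fold higher in basal cells, where 17.6% of all genes were. They were Tle4 at 17.1, Sobp at 10.2, Dach2 at 5.93, Myc at 4.59 and Tle2 at 2.29. Slc12a2 was past 2-fold lower at 0.403, where 13.2% of all genes were. Dach2 and Sobp, each at 0.495 CPM in CO, reached 1 CPM in the basal cells only, so their calls followed from the filter. In mesothelial cells 3 of 21 passed 2-fold, namely Vegfc at 2.46 and Sall1 at 2.27 higher and Ccnd1 at 0.404 lower in DES, where 4.33% and 4.36% of all genes were. Between CO glandular and luminal clusters 6 of 20 did. Gnaz at 6.19, Sobp at 4.58, Myc at 3.77, Tle1 at 3.12 and Pax8 at 2.56 were higher in glandular cells, where 15.6% of all genes were. Skil at 0.417 was lower in glandular cells, where 12.5% of all genes were. Gnaz and Sobp, at 0.431 and 0.495 CPM over all CO epithelial cells, reached 1 CPM in the glandular clusters only.

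The sections gave 9117099 to 12506177 UMIs over 1357 to 1834 spots, with a median of 4116 to 6656 UMIs per spot. A spot is a small region holding several cells, and in such data fewer cells of a type and less RNA per cell cannot be told apart. Values over the sections are given in the order CO A, CO B, DES A and DES B. By the study's account, CO B had a tissue fold and DES B was of limited use for telling clusters apart. Krt14, Krt5 and Trp63 together stood at 3.36 and 160 CPM in the whole CO A and CO B sections and at 9526 and 5644 CPM in DES A and DES B. The 5 muscle markers stood at 13345 and 14168 CPM in the CO and 3077 and 3458 CPM in the DES sections, and the 4 epithelial markers at 1899, 1469, 1985 and 2343 CPM in the 4 sections. The 6 stromal markers stood at 2915, 2931, 1359 and 968 CPM and the 4 myeloid markers at 327, 654, 2038 and 1137 CPM. The part of these shifts in the section results was not tested.

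Over whole sections, Eya1 was again the member with the clear difference. Its level was 1.76 and 1.18 CPM in the CO sections and 18.3 and 25.5 CPM in the DES sections. Both DES sections lay above both CO sections, with means of 21.9 ± 5.08 and 1.47 ± 0.411 CPM (SD, n = 2 sections). By edgeR's quasi-likelihood test the log2 fold change was 3.68 ± 0.37 (SE), with a Benjamini-Hochberg adjusted p of 0.0212. Without DES A the log2 fold change was 3.91 and the edgeR adjusted p 0.0583, and without DES B they were 3.36 and 0.103. Each of these fits has a single DES section, which is assumed to vary like the CO sections. Eya1 was the 1 member of 5 tested that was called higher, where 2.67% of 14098 genes were. By edgeR 0 members were called lower, where 2.63% of genes were, with 1 (Six5) at an unadjusted p below 0.05 and 0 called by DESeq2. A two-sided exact permutation test of 2 against 2 sections cannot go below a p of 0.333.

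The other members did not pass the test. Eya2 had 65.3 and 57.6 CPM in CO and 124 and 99.8 CPM in DES, so that the groups did not overlap, at a log2 fold change of 0.65 ± 0.19 (SE) and an edgeR adjusted p of 0.118. Without CO A that adjusted p was 0.0422. Six5 had 33.7, 47.7, 30.2 and 23.5 CPM, at -0.81 ± 0.23 and an edgeR adjusted p of 0.120, which became 0.0232 without CO A. Six4 (9.20, 13.5, 19 and 16.5 CPM) and Eya3 (8.48, 11.4, 13.6 and 15.1 CPM) had log2 fold changes of 0.44 and 0.33 with edgeR adjusted p of 0.369 and 0.491. Six2 had 0 UMIs in both CO sections and 14 and 5 in the DES sections (1.54 and 0.506 CPM), and the 19 UMIs pooled over both DES sections gave a level at least 7.85-fold higher than that of 3 UMIs over both CO sections together. Neither Six2 nor Eya4 (0.0800, 0.544, 1.21 and 0.304 CPM) had enough counts to be tested. The median log2 fold change was 0.44 over the 5 members and -0.01 over all genes.

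Epithelium-rich spots were the top 15% of each section by Epcam, Krt8, Krt18 and Cdh1, a score that uses no member. There Eya1 had 0 UMIs in each CO section and 50 (22.2 CPM) and 69 (32.3 CPM) in the DES sections. The 119 UMIs pooled over both DES sections gave a level at least 60.3-fold higher than that of 3 UMIs over both CO sections together. The edgeR adjusted p was 0.0164. With a single DES section it was 0.0588 without DES A, where the level left was 32.3 CPM, and 0.0962 without DES B, where it was 22.2 CPM. Of 5 members tested, 1 was called higher, where 4.39% of 11432 genes were. That member, Eya1, passed the filter on low counts only through the DES sections. By edgeR 0 members were called lower, where 2.55% of genes were, and 0 had an unadjusted p below 0.05 in that direction or a DESeq2 call. Eya2 had 105, 101, 141 and 113 CPM, so that the groups did not overlap. Its fitted log2 fold change was -0.02 with an edgeR adjusted p of 0.969. The edgeR fits rescale the section totals (TMM) and CPM levels do not, so the fitted fold changes can differ from ratios of CPM. Six4 had 10.7, 25.7, 20.9 and 14.5 CPM, a log2 fold change of -0.34 with an adjusted p of 0.698. Basal markers stood at 3.57, 175, 8953 and 6195 CPM in these spots, and their part in the Eya1 difference was not tested.

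Within sections, with the section as a block, Six5 was lower in epithelium-rich than in other spots. Its ratio of epithelium-rich to other spots was 0.443, 0.379, 0.551 and 0.537, a log2 fold change of -1.10 ± 0.14 (SE) with an edgeR adjusted p of 0.00484. Without the section block that adjusted p was 0.0819. Eya2 had ratios of 2.13, 2.47, 1.18 and 1.17, above 1 in all 4 sections, with a log2 fold change of 0.71 ± 0.23 and an edgeR adjusted p of 0.0619 that was below 0.05 under 4 of 9 alternatives. Of 5 members tested, 0 were called higher, where 10.2% of 12730 genes were, and 1 lower, where 14% were. Eya2 was the 1 member higher at an unadjusted edgeR p below 0.05, and DESeq2 called it.

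In muscle-rich spots, the top 15% by Acta2, Myh11, Cnn1, Actg2 and Des, Six5 was higher in 4 of 4 sections. It had 81.3, 71.4, 99.3 and 48.4 CPM against 26.2, 43.3, 24.5 and 20.8 CPM in the other spots, a log2 fold change of 1.59 ± 0.21 (SE) with an edgeR adjusted p of 0.000736. Eya2 was lower in 4 of 4 sections, with 5.85, 10.5, 10.1 and 20.6 CPM against 74.7, 66.3, 134 and 108 CPM, a log2 fold change of -2.81 ± 0.25 with an edgeR adjusted p of 0.000148. Six4 and Eya3 had log2 fold changes of -0.97 and -0.70 with edgeR adjusted p of 0.153 and 0.132, and that of Six4 was 0.0353 without CO A. Of 5 members tested, 1 was called higher, where 19.6% of 12665 genes were, and 1 lower, where 21.6% were.

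Eya1 differed between treatments in its contrast between spot classes. In the CO sections its ratio of muscle-rich to other spots was 2.95 (7 against 15 UMIs) and 8.73 (8 against 5 UMIs). In the DES sections this ratio was 0.691 and 0.379. In epithelium-rich spots Eya1 was at 0 in both CO sections and 1.31 and 1.36 times the other spots in the DES sections. The interaction of spot class and treatment was a comparison added after the data were seen. It gave a log2 difference of -3.27 ± 0.72 (SE) for the muscle-rich spots with an edgeR adjusted p of 0.0181, which was 0.0997 without CO B, at a log2 difference of -2.60, and 0.0557 without DES B, at -2.67. Eya1 was the 1 of 5 members called lower, where 1.57% of 13710 genes were, and edgeR called 0 higher, where 2.98% were, with 0 at an unadjusted p below 0.05 in that direction and 0 called by DESeq2. For the epithelium-rich spots the edgeR adjusted p of Eya1 was 0.00545 and it stayed below 0.05 under 8 of 8 alternatives. The contrast of Eya2 between epithelium-rich and other spots was smaller in DES by -1.08 ± 0.17 on the log2 scale, with an edgeR adjusted p of 0.00170 that also stayed below 0.05 under 8 of 8 alternatives. Six4 did not pass at -1.11 ± 0.38 (SE), with an edgeR adjusted p of 0.0749 that ranged from 0.000371 without CO A, at -1.65, to 0.447 without CO B, at -0.46. Here 1 member of 5 was called higher, where 6.87% of 13601 genes were, and 1 lower, where 6.41% were. The member called higher, Eya1, passed the filter on low counts only through the DES sections. Its call rests on 0 UMIs in the epithelium-rich spots of both CO sections. The 4 epithelial markers used for the score were all called lower in this interaction and the 5 muscle markers all higher, and in the muscle-rich interaction both sets were called higher.

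**Figure D4:**
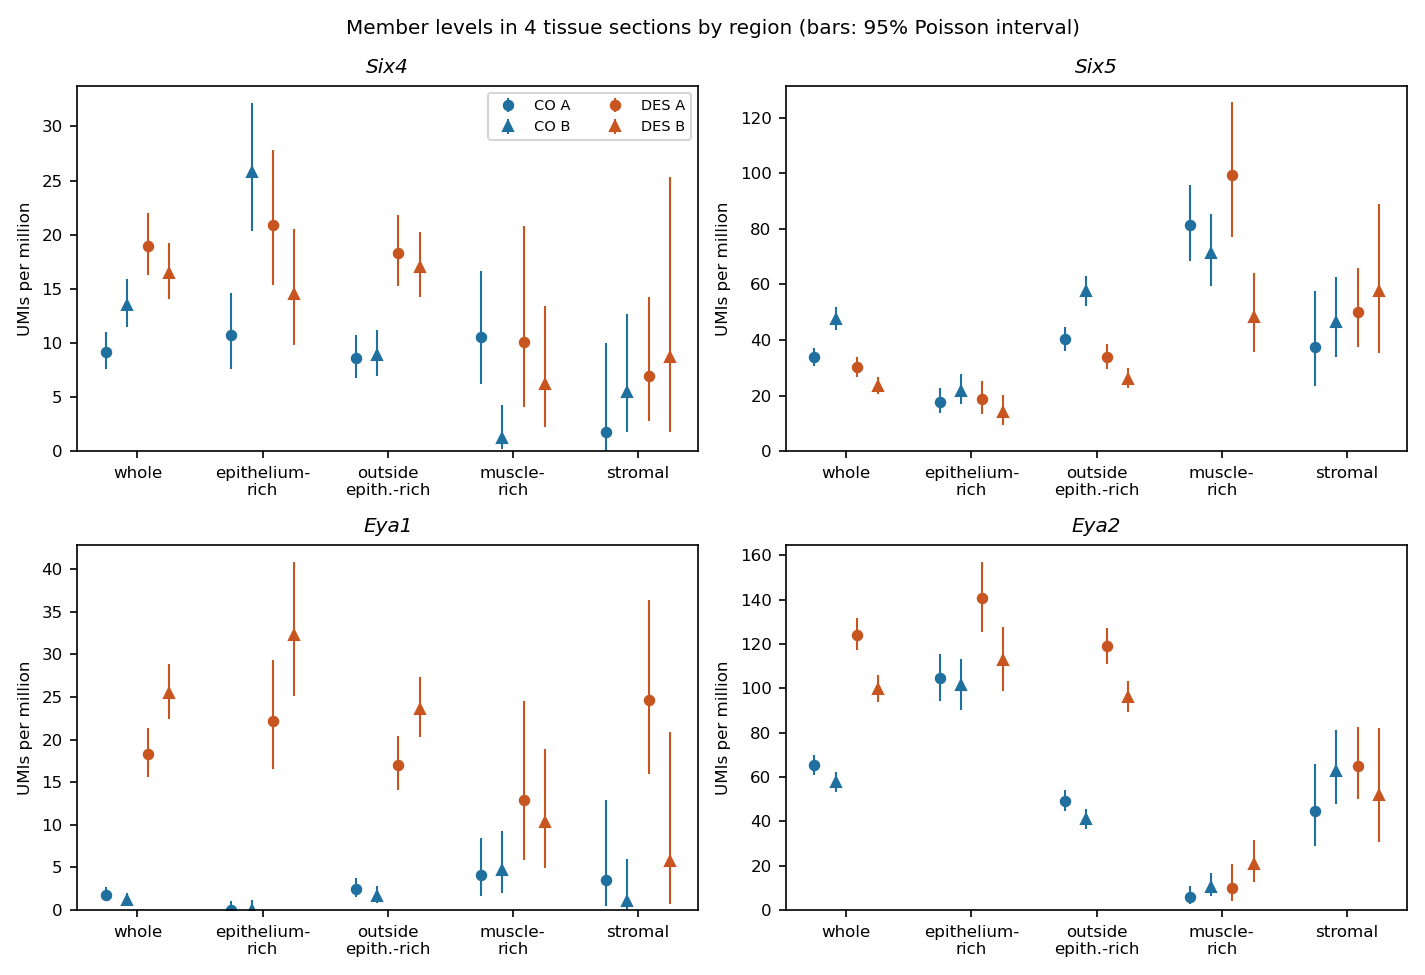
Levels (CPM, y axis) of Six4, Six5, Eya1 and Eya2 in the 4 sections, over the whole section and over the epithelium-rich, other, muscle-rich and stromal spots (x axis), with 95% Poisson intervals. Eya1 in both DES sections lay above both CO sections in whole sections, epithelium-rich spots and muscle-rich spots, Six5 was highest in muscle-rich spots in 3 of 4 sections (in DES B the stromal spots had 57.7 against 48.4), and Eya2 was lowest there in 4 of 4.

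In the stromal spot clusters named by the study, only Six5 and Eya2 had enough counts to be tested. Six5 had a log2 fold change of 0.27 ± 0.35 (SE) and Eya2 of 0.06 ± 0.34, with edgeR adjusted p of 0.836 and 0.969. Neither was called, where 0.796% of 8914 genes were called higher and 0.673% lower, nor did either have an unadjusted edgeR p below 0.05 or a DESeq2 call. Eya1 had 2, 1, 25 and 2 UMIs, so that DES A stood apart from the other sections. The stromal spots also differed in content, with basal markers at 0, 90.0, 7058 and 1998 CPM and muscle markers at 888, 700, 2705 and 8369 CPM.

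Of the pathway list, 23 genes were tested between DES and CO whole sections and edgeR called 0 of them, where 2.67% of all genes were called higher and 2.63% lower, with 10 at an unadjusted p below 0.05 and 4 called by DESeq2, namely Dach1, Dach2, Tle4 and Slc12a2. Dach2 had a log2 fold change of 3.53 ± 0.81 (SE) there with an edgeR adjusted p of 0.0793. In the epithelium-rich spots 19 were tested and edgeR called 0, where 4.39% of all genes were called higher and 2.55% lower, with 7 at an unadjusted p below 0.05 and 2, Dach2 and Slc12a2, called by DESeq2. In the stromal spots 15 were tested and edgeR called 0, where 0.796% of all genes were called higher and 0.673% lower, with 1 at an unadjusted p below 0.05 and 0 called by DESeq2. Between epithelium-rich and other spots 5 of 22 were called higher, where 10.2% of all genes were, and 3 lower, where 14% were, with a median log2 fold change of -0.08 beside 0.06 over all genes. Pax8 (0.98), Dach1 (0.97), Ezr (0.95), Skil (0.78) and Slc12a2 (0.55) were higher on the log2 scale, and Gnaz (-3.38), Sobp (-1.52) and Tle1 (-0.75) lower. Between muscle-rich and other spots 8 of 22 were called higher, where 19.6% of all genes were, and 9 lower, where 21.6% were, with a median of 0.06 beside -0.07 over all genes. Among them Pax8 (-3.82), Dach1 (-3.16), Ezr (-2.90) and Pax2 (-2.13) were lower on the log2 scale, and Gnaz (3.06), Tle2 (1.97), Vegfc (1.63) and Sobp (1.62) were higher. In the difference between DES and CO of the epithelium-rich contrast, Tle2 (2.38) was called higher and Pax8 (-1.12), Ezr (-0.93) and Sall1 (-0.75) lower among 23 tested, where 6.87% and 6.41% of all genes were. In that of the muscle-rich contrast edgeR called 0 of 23, where 2.98% of all genes were called higher and 1.57% lower, with 2 at an unadjusted p below 0.05 and 0 called by DESeq2.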

How the data were processed

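Uterine tissue was profiled by droplet single-cell RNA sequencing (1 pooled library per treatment) and by Visium spatial transcriptomics (4 sections). The deposited counts are UMI counts per gene and cell or spot, made by the authors from reads aligned to mm10. The submitters' processing notes name bcl2fastq 2.20.0.422, Cell Ranger 3.0.1 and Space Ranger 1.2.2, and the study's methods state that barcode swapping was looked for with DropletUtils and that doublets were removed with scran before annotation. No doublet caller was run here. Cell types and clusters are those of the deposited annotation, in which 350 cells had no column in the count table and were left out.

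UMIs were summed over the cells of each type, cluster or region and divided by that group's total (CPM). Levels carry exact Poisson 95% intervals and ratios exact conditional binomial 95% intervals, shares exact binomial ones, and all cover counting error only. With 1 library per treatment, no test was made on cells, and a gene was counted as different past 2-fold where either group reached 1 CPM. A gene far below 1 CPM in 1 group passes this filter only through the other group and is then past 2-fold by construction. A count of 0 is given the limit of 3 UMIs. To compare shares, each cell was thinned to 3000 UMIs, and 5000 was the alternative.

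Spots were summed per section, the replicate, and tested with edgeR 4.0.16 (quasi-likelihood, TMM scaling, filterByExpr, Benjamini-Hochberg threshold 0.05 over all genes tested) in R 4.3.3. The p-values of DES against CO rest on the spread between sections of the same treatment. Those of spot classes and of their interaction with treatment rest on how the contrast within a section varies between sections. Comparisons of spot classes had the section as a block. DESeq2 1.42.0 was the alternative tool, and other alternatives were its size factors, no filter on low counts, the top 25% of spots in place of 15%, leaving out each section and, for single cells, leaving out shared barcodes, other definitions of basal and epithelial cells and the mean per cell. In data simulated for the whole-section comparison (14102 genes), 76% of 50 genes changed 2-fold up and 68% of 50 changed to 0.5-fold were recovered, and all of those changed 4-fold either way. For the difference between DES and CO of the epithelium-rich contrast (13379 genes), 26% (2-fold), 20% (0.5-fold), 92% (4-fold) and 78% (0.25-fold) of 50 genes each were recovered. The simulation gave every gene the same dispersion, changed only well-counted genes and drew all sections and spot classes from the same profile. Its rates therefore do not give the power for these members. Python 3.11.15, NumPy 2.4.6, SciPy 1.17.1, pandas 2.3.3 and matplotlib 3.10.9 were used.

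The 7 genes, the pathway list and the marker lists were chosen with earlier results of these data known. The genes named are the 7 members, the pathway genes past a threshold, and the 3 genes most like each of the 5 members with at least 200 UMIs by Pearson's r.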

Additional observations from a re-analysis of the deposited data

Results flagged for a closer look

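Eya1 and Eya2 differed between DES and CO sections in their contrast of spot classes. The difference itself was tested, in edgeR with the section as a block. For Eya1, the difference between DES and CO in the contrast of epithelium-rich with other spots was fitted as 6.94 on the log2 scale, a value that rests on 0 UMIs in the epithelium-rich spots of both CO sections and is no bound. It was 3.22 with the top 25% of spots and 5.54 with DESeq2. For muscle-rich against other spots it was -3.27 for Eya1, a call that was lost without CO B (edgeR adjusted p 0.0997) and without DES B (0.0557). In that same difference, 4 of 4 endothelial and 3 of 6 stromal markers were called higher, with endothelial markers at 46.8, 80.8, 217 and 219 CPM in the muscle-rich spots of CO A, CO B, DES A and DES B, and their part was not tested. For Eya2, the difference between DES and CO in the contrast of epithelium-rich with other spots was -1.08, since the ratio of the spot classes was 2.13 and 2.47 in the CO sections and 1.18 and 1.17 in the DES sections. The 4 epithelial markers that define these spots were all called lower in the same difference, at a median of -0.83. Outside these spots they stood at 1318, 901, 1611 and 1993 CPM in CO A, CO B, DES A and DES B. The part of a less distinct spot class in the Eya1 and Eya2 differences was not tested. In the epithelium-rich spots, muscle markers stood at 276, 230, 549 and 763 CPM and myeloid markers at 134, 227, 1832 and 716 CPM in CO A, CO B, DES A and DES B, and their part in these differences was not tested.

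Cells to which the authors gave no type held counts that no comparison of cell types used. In them Six4 stood at 18.6 CPM in DES and 7.18 CPM in CO, a ratio of 2.60 (95% interval 2.37 to 2.84, counting error only). Eya1 stood at 3.05 CPM in DES and 0.796 CPM in CO, a ratio of 3.83 (2.98 to 4.91). Eya2, Six5 and Eya3 had ratios of 0.986, 1.01 and 1.05 in the same cells. These cells were shallow, with a median of 4137.5 UMIs in CO and 2178 in DES. Their basal markers stood at 3.82 CPM in CO and 349 CPM in DES, and their myeloid markers at 86.9 and 709 CPM. Stromal markers stood at 7078 and 4024 CPM and mesothelial markers at 739 and 477 CPM. The part of these shifts in the 2 higher ratios was not tested.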

How the results depend on the processing

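The number of genes called between DES and CO sections depended on the setting. Over whole sections 747 genes were called, and DESeq2 called 1791. Leaving out 1 section gave 3 to 2819 calls, with 2819 without CO A, 2336 without CO B, 14 without DES A and 3 without DES B. Stromal spots gave 131 calls, 714 with no filter on low counts and 40 (without DES A) to 357 (without CO A) with 1 section left out. Epithelium-rich spots gave 794 calls, 1390 with no filter on low counts and 0 to 2623 with 1 section left out: edgeR called 2623 without CO A, 2475 without CO B and 49 without DES A, and 0 without DES B, where 1457 genes had an unadjusted p below 0.05. Epithelium-rich against other spots gave 3080 calls, and 447 (without CO A) to 2797 (without DES B) with 1 section left out. Its difference between DES and CO gave 1806 calls, 707 with DESeq2 and 868 (without DES B) to 3488 (without CO A) with 1 section left out. The difference for muscle-rich spots gave 624 calls, 292 with DESeq2, 1066 with no filter and 1019 with the top 25% of spots.

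Without the section as a block, which pairs the spot classes of 1 section, 658 genes were called between epithelium-rich and other spots and 3609 between muscle-rich and other spots, the log2 fold change of Eya1 changed sign to 0.18 and -0.39, and Six5 lost its call in the epithelium-rich contrast at a like log2 fold change (-1.13 in place of -1.10). No paired analysis was possible for DES against CO because the section letters do not tie a CO to a DES mouse. With the top 25% of spots, Eya2 in epithelium-rich spots stood at 0.18 in place of -0.02. With 1 section left out, log2 fold changes not past the threshold changed sign: Eya2 ranged from -0.18 to 0.36 in stromal spots and from -0.15 to 0.11 in epithelium-rich spots, Six4 from -0.82 to 0.40 in epithelium-rich spots, Eya1 from -0.72 to 0.13 and Eya3 from -0.059 to 0.14 in epithelium-rich against other spots, and Eya1 from -0.22 to 1.19 in muscle-rich against other spots. Of 216 values of the 5 genes tested under an alternative, 188 kept their direction and their side of the threshold, 7 lost the threshold, 9 gained it and 12 changed sign. Among these 216 values, the only interactions counted were those reported above. They were Six4, Eya1 and Eya2 for epithelium-rich spots and Eya1 for muscle-rich spots. Of 64 single-cell ratios, 57 moved by less than their interval. Of 42 shares of cells, 30 moved by more than theirs, all upward, with 5000 UMIs or no thinning, which keep more UMIs per cell. With epithelial cells defined by markers alone (139 CO and 453 DES cells), Six4 passed 2-fold at 2.32 and Eya2 stood at 0.834. Six2 and Eya4 had too few counts for any section test. The causes of these changes were not tested.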
